A study of Homo sapiens with 4 samples.

Results

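The strongly thymidine-skewed BrdU peaks are intervals in which one DNA strand is unusually rich in thymidine. They were taken from the list of 33295 BrdU peaks of this study. A peak was counted as T-skewed when it lay on chromosomes 1 to 22, when A or T on the reference strand made up 45% or more of its known bases, and when it overlapped no perfect tandem tract (a unit of 1 to 6 bp repeated over 20 bp or more). This held for 2981 of 32710 autosomal peaks, which lay at 2258 separate sites. The choice rests on the genome sequence under the peaks and uses no BrdU signal.

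The peaks come from BrdU-Seq in BJ-hTERT cells, human fibroblasts made immortal with telomerase. Cultures were released from serum starvation, labelled with BrdU and collected after 16, 19, 22, 24 and 28 h in 2 repeats, and the BrdU-labelled DNA was compared with Input DNA. The list pools the peaks of the 5 timepoints and gives a chromosome, a start and an end for each, with no timepoint, repeat, score or read count. The spread between repeats and the depth behind a peak are therefore unknown, and the ChIP-Seq samples for RNAPII and PCNA were not analysed here. Intervals of 95% below are Wilson intervals for shares and Newcombe intervals for differences. They cover counting error over intervals only, and peaks that overlap each other are not independent.

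BrdU is an analogue of thymidine, which DNA polymerases insert opposite adenine. A replicated double helix with unequal A and T on its strands takes up unequal amounts of BrdU on its new strands, since each new strand copies the opposite parental one. In human genes the coding strand, which has the sequence of the RNA, tends to hold more T than A and more G than C, while the template strand is the one read by RNAPII. Old insertions of transposons and simple repeats can also make one strand T-rich.

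Some stretches of the reference genome (hg38) show what these peaks look like. Each is a whole peak, read 5′ to 3′ on its T-rich strand, with T in capitals. The first is typical of most T-skewed peaks, the next pair holds T on alternate bases with mainly C or mainly G between them, the fourth comes from one of the deepest stacks of overlapping peaks, and the last has the highest share of T.
chr2:121311709-121311968, reverse strand: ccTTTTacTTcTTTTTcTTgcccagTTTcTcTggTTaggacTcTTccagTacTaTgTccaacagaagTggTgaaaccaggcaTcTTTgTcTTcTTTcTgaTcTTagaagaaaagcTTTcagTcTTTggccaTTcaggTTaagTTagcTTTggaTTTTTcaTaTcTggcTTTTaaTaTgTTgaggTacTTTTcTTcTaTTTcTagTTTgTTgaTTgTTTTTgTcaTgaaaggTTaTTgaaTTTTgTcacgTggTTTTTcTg
chr6:170028372-170028591, reverse strand: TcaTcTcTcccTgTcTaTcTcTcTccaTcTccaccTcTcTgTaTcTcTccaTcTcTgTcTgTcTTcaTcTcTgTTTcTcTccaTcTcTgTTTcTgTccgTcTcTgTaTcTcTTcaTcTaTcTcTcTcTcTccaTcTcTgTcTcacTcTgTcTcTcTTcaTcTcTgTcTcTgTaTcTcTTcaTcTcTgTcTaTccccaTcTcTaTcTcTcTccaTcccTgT
chr1:154714277-154714487, reference strand: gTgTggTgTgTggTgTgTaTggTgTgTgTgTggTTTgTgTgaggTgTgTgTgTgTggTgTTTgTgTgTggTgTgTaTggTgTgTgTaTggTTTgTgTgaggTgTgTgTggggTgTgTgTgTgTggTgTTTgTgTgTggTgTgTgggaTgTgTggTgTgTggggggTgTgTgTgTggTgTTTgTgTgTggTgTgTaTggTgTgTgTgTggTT
chr19:15991194-15991484, reverse strand: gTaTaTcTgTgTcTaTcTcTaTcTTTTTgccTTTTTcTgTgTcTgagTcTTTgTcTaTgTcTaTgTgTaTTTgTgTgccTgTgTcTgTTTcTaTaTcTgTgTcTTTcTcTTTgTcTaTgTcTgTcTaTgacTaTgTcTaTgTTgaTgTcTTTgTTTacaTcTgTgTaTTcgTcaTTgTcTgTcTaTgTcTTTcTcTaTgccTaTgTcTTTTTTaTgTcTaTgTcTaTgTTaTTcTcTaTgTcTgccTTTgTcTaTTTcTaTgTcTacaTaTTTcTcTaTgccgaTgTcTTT
chr9:105859736-105859934, reverse strand: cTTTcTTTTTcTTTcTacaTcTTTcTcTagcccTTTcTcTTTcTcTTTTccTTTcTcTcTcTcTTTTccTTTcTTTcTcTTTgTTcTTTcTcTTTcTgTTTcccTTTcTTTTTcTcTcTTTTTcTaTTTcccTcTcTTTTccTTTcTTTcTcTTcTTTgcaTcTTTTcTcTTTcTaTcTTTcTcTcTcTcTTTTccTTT

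The peak on chromosome 2 and the one on chromosome 6 were also the nearest above the limit, with T at 45% of the bases in both, and neither lies in a protein-coding gene. The nearest peaks below the limit, chr2:10518227-10518795 and chr1:20959024-20959512, both had 44.99% T. The second of these lies in intron 12 of EIF4G3, a translation initiation factor. The peak shown from chromosome 1 lies in intron 6 of KCNN3, a calcium-activated potassium channel gene, on the strand opposite to the coding one. It had 109 G and 0 C on its T-rich strand, the most G over C of all T-skewed peaks. The most C over G was found at chr16:89634697-89635106 in intron 2 of DPEP1, a dipeptidase gene. There the T-rich strand was the coding strand and consisted of T (48.5%) and C (51.5%) without a single A or G. The peaks on chromosome 6, in KCNN3 and in DPEP1 were free of perfect tracts. They matched their own sequence at 71.6, 78.3 and 87.1% of positions, at the best shift of up to 120 bp. This match was not corrected for base composition, which by itself raises it where few bases prevail or T alternates.

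On the T-rich strand, the T-skewed peaks held 47.4% ± 2.24 T (mean ± SD over 2981 peaks) and 15.4% ± 6.28 A. The other 27828 autosomal peaks without a tract held 36.8% ± 4.70 T and 22.9% ± 4.93 A. T-skewed peaks had a median width of 269 bp, against 278 bp in these other peaks. The T-rich strand was the reference strand in 1541 peaks and the reverse strand in 1440. Most stood just above the limit, and 353 reached 50% T.

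The T-skewed peaks made up 9.11% of the autosomal peaks. For comparison, the autosomes were cut into 9843267 adjoining windows of 280 bp, the median width of the peaks, and 3.50% of these windows met the same rule. The share was thus 2.60 times higher in peaks. When the central 280 bp of each peak was used in place of the whole interval, 10.0% of peaks met the rule, and 2500 of the T-skewed peaks were among them. The highest shares of T were 63.3% at chr9:105859736-105859934, outside protein-coding genes, and 62.7% at chr21:8203295-8203586, in a long non-coding RNA gene. Next came 62.0% at chr9:137503896-137504111, in intron 14 of the lysophospholipase gene PNPLA7 with T on the coding strand. At the best shift of up to 120 bp, these 3 peaks matched their own sequence at 67.8, 80.4 and 85.0% of positions.

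**Figure D1:**
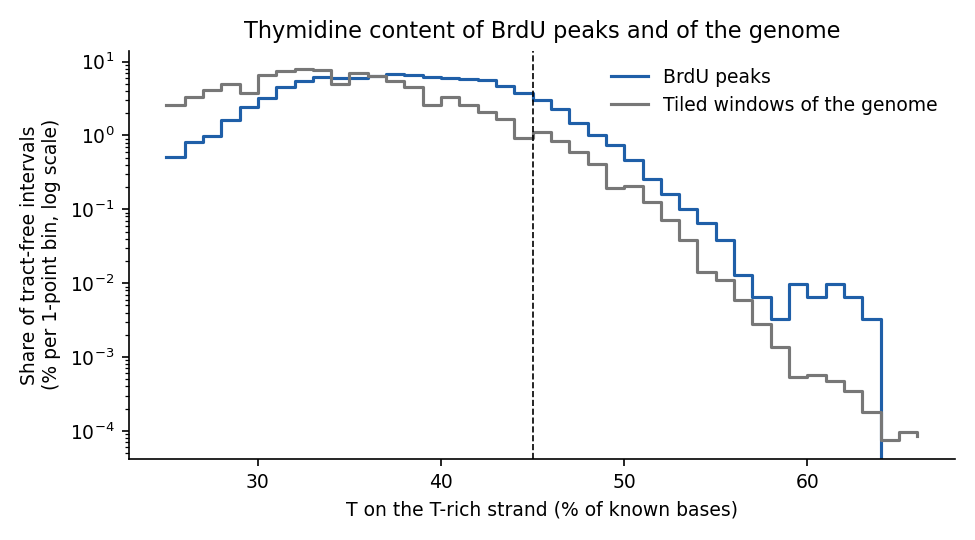
Share of T on the T-rich strand (x axis, %) in autosomal BrdU peaks and in adjoining windows of the median peak width, both without tandem tracts, as a percentage of intervals per bin of 1 point (y axis, log scale). The dashed line is the limit of 45%, to the right of which the peaks stand above the windows up to 64% T.

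As a ratio, the shares in peaks and windows differed most where the sequence was not AT-rich. Among peaks without a tract and with an AT content of 50 to 55%, 10.3% were T-skewed, compared to 0.0725% of windows of that AT content. At an AT content of 65 to 70%, the shares were 25.5% of peaks and 7.95% of windows.

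The same was seen from the side of the genome. Of all windows, 0.572% overlapped a BrdU peak. Among windows with an AT content of 50 to 55%, this share was 0.258% when T stayed below 30%, 0.504% at 30 to 35% T, 17.1% at 40 to 45% T and 34.5% at 45 to 50% T (95% interval 31.1 to 38.1, 713 windows). In windows with an AT content of 70% or more, only 0.389% overlapped a peak at 45 to 50% T. Within this AT class the share was still lower at less T, with 0.0551% at 35 to 40% T and 0.120% at 40 to 45%. From 50% T on it was 0.355%. Among all windows that met the rule, 25.5% of 2978 windows with an AT content under 60% overlapped a peak, against 1.35% of 341402 windows with more A and T.

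**Figure D2:**
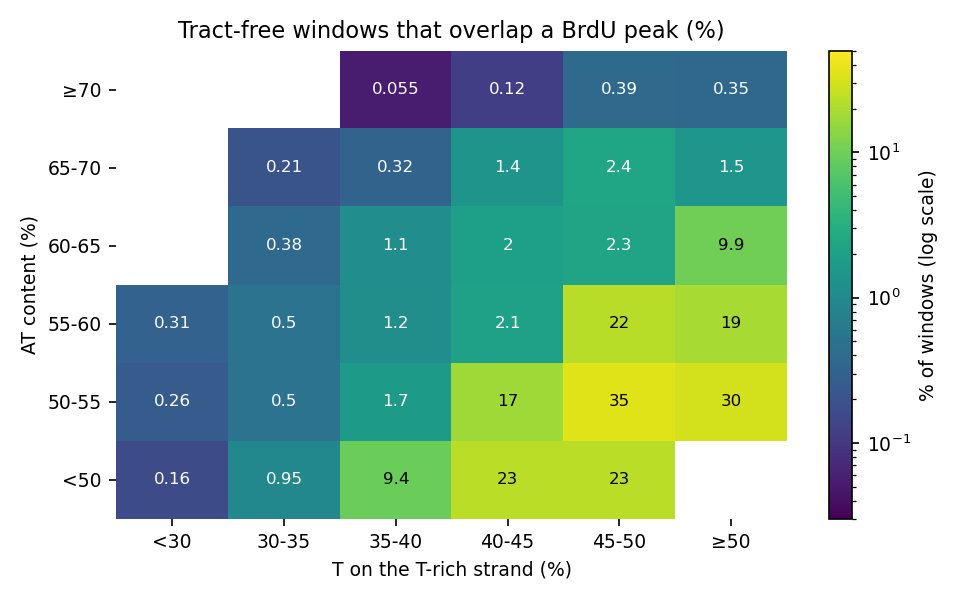
Percentage of tract-free autosomal windows that overlap a BrdU peak, by AT content (y axis) and share of T on the T-rich strand (x axis), with colour on a log scale and classes of under 100 windows left blank. The percentage was highest, at 34.5%, at an AT content of 50 to 55% and a T share of 45 to 50%, and fell to 0.389% at the same T share when the AT content reached 70%.

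The T-skewed peaks fell into 2 kinds of sequence. In each peak, the hexamers of the T-rich strand were counted in which T stood on alternate bases and nowhere else, such as TGTGTG or CTGTCT. They made up under 10% of the hexamers in 1921 peaks and 40% or more in 682, whereas 94 peaks lay between 10 and 20% and 101 between 20 and 30%. Peaks with 20% or more were called alternating. This limit was set after the values had been seen. There were 966 alternating peaks at 508 sites (32.4% of T-skewed peaks), and the other 2015 peaks lay at 1754 sites. Of windows outside peaks that met the rule, 1.26% were alternating. Among the other tract-free peaks, 1705 of 27828 (6.13%) were alternating too, and these were not set apart in the comparisons below.

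**Figure D3:**
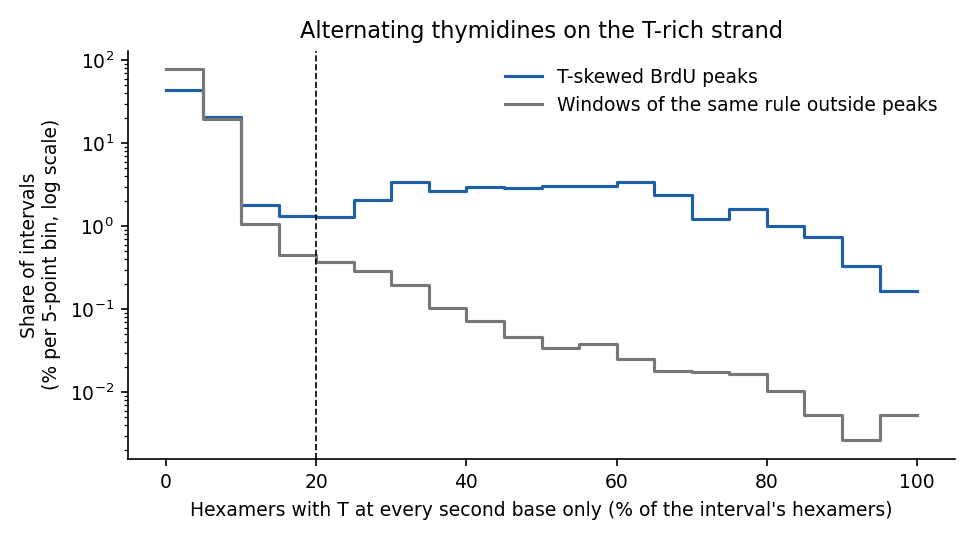
Percentage of hexamers with T on alternate bases only (x axis) in 2981 T-skewed peaks and in 339025 windows outside peaks that met the same rule, as a percentage of intervals per bin of 5 points (y axis, log scale). The dashed line is the limit of 20%, above which lie 32.4% of the T-skewed peaks and 1.26% of the windows.

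Alternating peaks were poor in A. Their T-rich strand held 48.3% ± 2.49 T, 8.55% ± 4.94 A, 28.2% ± 11.5 G and 15.0% ± 12.7 C (mean ± SD, 966 peaks). In the other T-skewed peaks these values were 47.0% ± 1.97, 18.7% ± 3.65, 16.2% ± 4.97 and 18.1% ± 5.81 (2015 peaks). Hexamers with T on alternate bases are more frequent in alternating peaks by definition. Of these, TGTGTG made up 6.29% of all hexamers in alternating peaks and 0.106% in the other T-skewed peaks. In the latter, TTTTTT (0.608%), TTTTCT (0.538%) and TTCTTT (0.513%) led. Alternating windows outside peaks were of another kind, since TATATA made up 8.46% of their hexamers, against 0.101% in alternating peaks.

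Among windows that met the rule, AT-poor ones overlapped a peak mainly where they were alternating. Of 1037 alternating windows with an AT content under 60% that met the rule, 634 overlapped a BrdU peak (61.1%, 95% interval 58.1 to 64.1). The share was 5.51% in 4084 alternating windows with a higher AT content, 6.39% in 1941 AT-poor windows without alternation, and 1.30% in the remaining 337318. Moving all windows along by a part of their width gave 58.9% for the first class. Windows that reached the T limit but held a tract of 20 bp or more overlapped a peak in 1.33%, and here too the alternating AT-poor ones stood apart. Of 279 alternating AT-poor windows with a tract, 49.1% overlapped a peak, against 0.818% of AT-poor ones without alternation. In the list, 205 of the 279 peaks that were left out for a tract were alternating. Reads from repeated sequence can be placed wrongly, and the part of read placement or of Input coverage in these shares was not tested.

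How often the sequence of a peak recurs was measured with words of 24 bp on both strands of the autosomes. In alternating peaks a median of 74.3% of the words occurred once (quartiles 51.0 and 88.7), and in the other T-skewed peaks 76.8% (49.2 and 95.8). The median was 91.5% in every 10th of the other tract-free peaks and 88.3% in every 200th window outside peaks that met the rule. By this median the T-skewed peaks held more repeated words than both, but most of their words were single-copy. Their typical word occurred 10 times or more in 1.45% of alternating peaks and 5.41% of the others, compared to 4.38% of the other tract-free peaks and 10.6% of the windows.

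Within either kind of T-skewed peak, no word was shared by more than 14 sites. Words found at many sites are given here on the T-rich strand in capitals, the first from alternating peaks and the rest from the remaining ones.
Shared word 1: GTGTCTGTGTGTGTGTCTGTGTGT
Shared word 2: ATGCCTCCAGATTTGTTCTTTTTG
Shared word 3: TTCACTGTCATCTTTTCTCTGGGT
The first was found at 14 of 508 alternating sites on 12 chromosomes, and 29 of its 137 autosomal copies lay inside a BrdU peak. The second was found at 14 of 1754 sites, also on 12 chromosomes, and 33 of its 779 copies lay inside a peak. The 13 sites of the third all lay in the region chr6:160841192-160858244, and 24 of its 34 copies lay inside a peak. A further word of non-alternating peaks, whose letters are not shown, was also found at 13 sites, and 21 of its 808 copies lay inside a peak. Each copy was counted on either strand.

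Next, the T-rich strand was compared with the direction of genes. Of the T-skewed peaks, 1323 (44.4%) overlapped a protein-coding gene of the GENCODE annotation (version 44), 1283 lay wholly in introns and 40 touched an exon. Genes were overlapped by 54.1% of the other tract-free peaks, 33.9% of windows outside peaks that met the rule and 45.4% of all windows. The T-skewed peaks differed by -9.73 points (-11.6 to -7.85) from the other peaks and by 10.4 points (8.65 to 12.2) from the windows that met the rule. In 1302 peaks, the genes overlapped were all on one strand. The T-rich strand was the coding strand in 971 of them (74.6%, 95% interval 72.1 to 76.9) and the template strand in the rest. The share was 61.3% in the other tract-free peaks, which is 13.2 points lower (10.7 to 15.7), and 73.8% in windows outside peaks that met the rule. The difference from these windows was 0.792 points, with an interval from -1.66 to 3.10.

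The share of T-rich coding strands was higher where T was higher. In peaks it was 49.3% at 25 to 30% T, 53.3% at 30 to 35%, 63.4% at 35 to 40%, 70.5% at 40 to 45%, 74.0% at 45 to 50% and 79.1% from 50% on. In windows it went from 56.6% to 76.2% over the same classes. Under 35% T the peaks stood below the windows beyond their intervals. The intervals of gene length classes overlapped. The coding share was 75.9% (95% interval 65.7 to 83.8) in genes under 30 kb, 73.1% (68.2 to 77.4) in genes of 30 to 100 kb and 75.1% (72.1 to 77.9) in longer genes.

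The kinds of sequence differed in this share. The T-rich strand was coding in 240 of 369 alternating peaks (65%) and in 731 of 933 other T-skewed peaks (78.3%), a difference of -13.3 points (-18.9 to -7.87). Non-alternating peaks stood 4.31 points (1.54 to 6.84) above non-alternating windows, of which 74.0% had T on the coding strand. Alternating peaks stood 11.8 points (6.15 to 17.1) above alternating windows, of which 53.3% had T on the coding strand. With an AT content under 60%, the shares were 66.3% of alternating peaks (95% interval 60.4 to 71.7) and 64.8% of alternating windows (56.1 to 72.6, 125 windows). With a higher AT content, they were 61.9% (52.4 to 70.6) and 52.1% (49.4 to 54.9). With 1 peak counted per site, the shares were 63.2% in alternating peaks and 78% in the others.

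**Figure D4:**
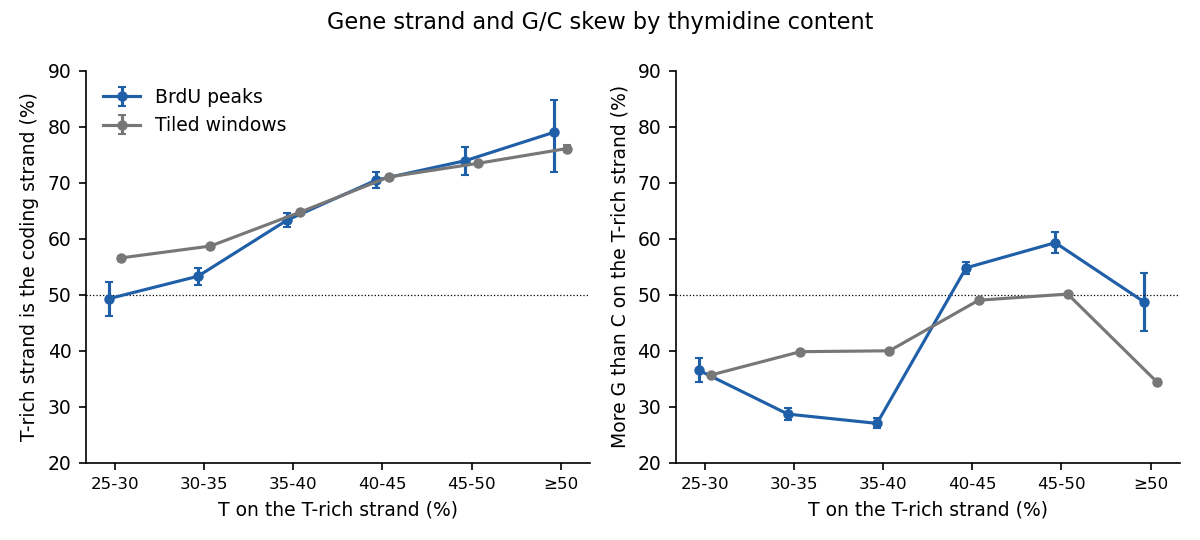
Percentage of intervals with T on the coding strand of protein-coding genes (left) and with more G than C on the T-rich strand (right), by share of T (x axis), for tract-free peaks and windows with 95% Wilson intervals. The coding share is higher at each step of T in both sets, and the share with more G is 27.0% in peaks at 35 to 40% T and 59.3% at 45 to 50% T.

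The second question was whether G and C were also unequal. Leaving out 38 peaks with as many G as C, 1709 of 2943 T-skewed peaks had more G than C on the T-rich strand (58.1%, 95% interval 56.3 to 59.8). This share was 36.3% in the other tract-free peaks and 48.0% in windows outside peaks that met the rule, a difference of 21.8 points (19.9 to 23.7) and 10.1 points (8.30 to 11.9). It was not a steady function of T. Peaks at 35 to 40% T had more G in 27.0%, peaks at 40 to 45% in 54.8%, at 45 to 50% in 59.3% and from 50% on in 48.7%, and windows from 50% on in 34.5%.

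More G than C was found most often in alternating peaks, in 72.2% (95% interval 69.2 to 74.9). Their skew of G over C, computed as (G - C)/(G + C), had a median of 0.51 with quartiles at -0.26 and 0.78, so that both TG-rich and TC-rich peaks were present. In the other T-skewed peaks 51.2% had more G (49.0 to 53.4), and the median skew was 0.01 with quartiles at -0.16 and 0.12. These stood 3.36 points (1.15 to 5.57) above windows without alternation. AT-poor peaks without alternation were rich in C, as only 11.0% of 91 such peaks had more G, compared to 8.21% of AT-poor windows without alternation.

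Within genes, more G went with T on the coding strand. G exceeded C in 62.5% of 951 peaks whose T-rich strand was coding and in 53.0% of 328 whose T-rich strand was template. The same order was found in windows, with 51.6% and 40.5%. Among non-alternating peaks, T lay on the coding strand in 83.5% (95% interval 79.9 to 86.5) when G exceeded C, and in 72.0% (67.5 to 76.1) when C exceeded G. In alternating peaks the intervals of these values overlapped, at 66.8% (61.1 to 72.0) and 59.3% (48.7 to 69.1).

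T skew extended beyond the edges of the peaks. In the flanks from 0.25 to 1 kb on both sides, the skew (T - A)/(T + A), read on the T-rich strand of the peak, had a mean of 0.19 ± 0.16 (SD, 2981 peaks) and was above 0 in 88.8% of peaks. In the other tract-free peaks the mean was 0.10 ± 0.13, and in windows outside peaks that met the rule it was 0.17 ± 0.12. Non-alternating T-skewed peaks had 0.22 ± 0.13, compared to 0.17 ± 0.12 in windows without alternation. Their skew was 0.33 in the first 100 bp, 0.20 just short of 1 kb and 0.05 just short of 5 kb. In alternating peaks it was 0.58 in the first 100 bp and 0.07 just short of 1 kb, against 0.11 and 0.03 in alternating windows. These were not matched for composition. The mean AT content was 56.8% inside alternating peaks and 83.7% inside alternating windows, so the intervals themselves already differed in skew.

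Neighbouring peaks often had T on the same strand. The nearest peak that did not overlap lay within 10 kb for 1716 T-skewed peaks, and it had the same T-rich strand in 1476 (86.0%, 95% interval 84.3 to 87.6), against 72.4% in the other tract-free peaks. The difference was 13.6 points (11.8 to 15.3). It was not adjusted for distance, and the nearest peak was under 1 kb away for 982 of 1716 T-skewed and 7868 of 17497 other peaks. By the rule, T-skewed peaks have a clear T-rich strand, whereas in other peaks A and T could be nearly equal. The shared strand depended on distance. With the nearest peak under 1 kb away, 98.4% of 982 T-skewed peaks shared its T-rich strand, and at 1 to 2 kb 88.5% of 218. The shares were 70.2% of 272 peaks at 2 to 5 kb, 51.6% of 244 at 5 to 10 kb and 55% of 591 at 10 to 50 kb. For the other tract-free peaks, the shares in these 5 classes of distance were 86.3, 68.8, 61.3, 54.7 and 53.2%. T-skewed peaks that were each other's nearest were counted from both sides. From 5 kb on, the intervals of T-skewed and other peaks overlapped. The neighbour within 10 kb was itself T-skewed in 24.9% of cases, and in 7.20% of cases for the other peaks. This share was 52.6% for alternating peaks and 17.2% for non-alternating ones.

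**Figure D5:**
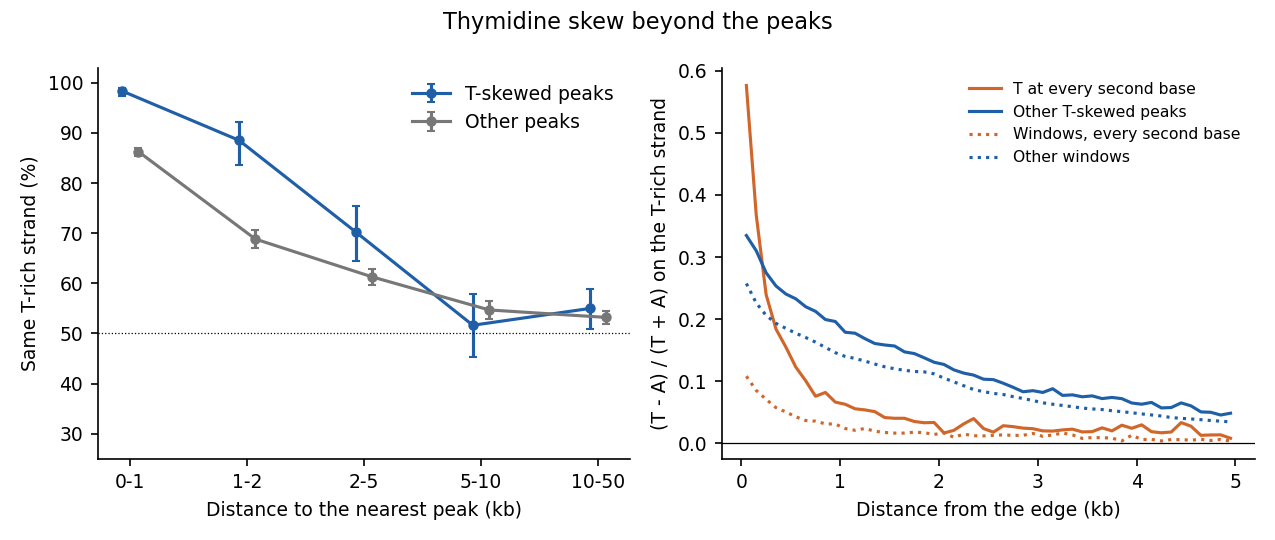
Left, percentage of peaks with the same T-rich strand as the nearest peak that does not overlap, by distance in kb, with 95% Wilson intervals. Right, skew of T over A beyond the edges, read on the T-rich strand of the interval, by distance in kb, for T-skewed peaks and for windows outside peaks that met the rule. The shared strand goes from 98.4% under 1 kb to 51.6% at 5 to 10 kb, and the skew of non-alternating peaks from 0.33 at the edge to 0.05 at 5 kb.

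The longest run of consecutive sites with T on the same strand that held a T-skewed peak was on the short arm of chromosome 21 (chr21:7915842-8420789). All 47 sites there, with 88 peaks, had T on the reference strand, and 11 of the peaks at 4 sites were T-skewed, none of them alternating. No protein-coding gene is annotated in it, and whether its sites are copies of one sequence was not tested. Runs of 26 sites lay at chr9:35817329-35989577, over 7 protein-coding genes of both strands, and at chr1:214690896-214844836, over none. They held 8 T-skewed peaks among 34 and 7 among 33. On chromosome 11, runs of 19 sites lay at chr11:58365966-59225393, with 7 T-skewed peaks among 23, and at chr11:1914343-2066236. The latter covers TNNT3, a gene for a skeletal troponin, and MRPL23, a mitochondrial ribosomal protein gene. It held 102 peaks, of which 26 at 10 sites were T-skewed. For comparison, 9.11% of all autosomal peaks were T-skewed, and runs were listed only if they held such a peak.

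Overlaps between peaks were frequent. Another peak was overlapped by 1534 T-skewed peaks (51.5%, 95% interval 49.7 to 53.3) and by 35.6% of the other tract-free peaks, a difference of 15.8 points (14.0 to 17.7). Since the list pools the peaks of 5 timepoints without naming them, overlapping peaks may be the same site called again. The alternating peaks overlapped another peak in 82.4%, but the other T-skewed peaks only in 36.6%, which is 1.01 points (-1.15 to 3.21) from the other tract-free peaks. Of 1553 overlapping pairs with a T-skewed peak, both were T-skewed in 992 (63.9%), and in 1 pair the T-rich strands were unequal.

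The number of peaks stacked over one base was at most 5. At least 3 were stacked in 49.9% of alternating peaks, 7.69% of the other T-skewed peaks and 9.99% of the other tract-free peaks. Seen by depth, T-skewed peaks made up 7.47% of 19363 tract-free peaks that stood alone, 11.2% of those at a depth of 2, 22.4% of 1956 at a depth of 3 (95% interval 20.6 to 24.3), 14.9% at a depth of 4 and 11.2% at a depth of 5. Peaks whose sequence matched itself at 70% or more of positions when shifted by up to 120 bp were called tandem arrays. They made up 28.2% of alternating peaks, 4.76% of the other T-skewed peaks and 7.96% of other tract-free peaks. The other T-skewed peaks thus stood below the tract-free ones, with a difference of -3.20 points (-4.10 to -2.13), while T-skewed peaks as a whole stood above them with 12.3%. The match was not corrected for base composition, and T on alternate bases by itself raises it at even shifts. The higher array share of alternating peaks can therefore follow from how these peaks were defined. Without the peaks called arrays, the T-skewed share was 23.2% at a depth of 3, 19.5% at 4 and 17.5% at 5. Of the T-skewed peaks at a depth of 5, the highest share of T was 53.9%, at chr19:15991167-15991704 in the pseudogene CYP4F9P. Another peak of this stack is printed above.

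The 2 kinds of T-skewed peaks also differed in their position on chromosomes. Within 5 Mb of a chromosome end lay 35.2% of alternating peaks (95% interval 32.3 to 38.3) but 7.99% of the others (6.88 to 9.26). This share was 11.2% in other tract-free peaks, 8.87% in alternating windows outside peaks and 7.0% in all windows. By chromosome, the T-skewed share ran from 6.15% of peaks on chromosome 1 to 13.7% on chromosome 9. On chromosome 19 it was 12.8%, where 93 of 119 T-skewed peaks were alternating and 1.73% of windows met the rule.

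T-skewed peaks were found in 803 protein-coding genes, at 1 site in 623 and at 3 or more in 54. CEP63, which encodes a centrosomal protein needed for centriole duplication, had the most sites. Its 13 T-skewed peaks, of 34 BrdU peaks in the gene, lay at 11 sites in introns 2 and 3 (gene at chr3:134485699-134587789, plus strand), held 45.1 to 48.3% T, and all had T on the coding strand. None was alternating and G exceeded C in 10. NEK1, a kinase gene linked to cilia and DNA repair (chr4:169369704-169612632, minus strand), followed with 10 of 34 peaks at 7 sites, all with T on the coding strand and none alternating. SBF2, a myotubularin-related gene (chr11:9776776-10304877, minus strand), had 6 of 38 at as many sites, 5 of them with T on the coding strand.

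The next 7 genes had T-skewed peaks at 5 sites each, and the 2 of them with the most such peaks, after a tie between RUNX1 and USP47 that was settled by name, are described here. In the cadherin gene CDH4 (chr20:61252261-61940617, plus strand), 9 of 21 peaks were T-skewed and all 9 were alternating. They lay at 5 sites in introns 2, 4 and 6 and had more G than C, with T on the coding strand in 8. In RUNX1 (chr21:34787801-36004667, minus strand), which encodes a transcription factor of blood development, 7 of 65 peaks were T-skewed, close to the share of 9.11% over all autosomal peaks. Of the 7, 4 were alternating, and all had T on the coding strand. A group of 3 formed a stack in intron 6 with a depth of 5, at 45.4, 46.1 and 46.3% T. The other genes at 5 sites were less uniform. T was on the coding strand in 4 of 7 peaks of USP47, 5 of 5 of ARHGAP29, 1 of 5 of C8orf34, 4 of 5 of PDE1C and 4 of 5 of PRIM2. Over the 54 genes with 3 or more sites, it was on the coding strand in 197 of 241 peaks (81.7%), counted once for each gene, and 31 genes had it so in all of their T-skewed peaks and 10 in fewer than on the template strand. Long genes offer more room for peaks, and these counts were not adjusted for length.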

How the data were processed

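The data analysed were the BrdU peaks in the deposited list, which the authors obtained by aligning reads to hg38 with Bowtie 2 and calling peaks against Input DNA with MACS2 at each timepoint. Its values, positions in bp, are as deposited, without normalization or counts, so depth and precision per peak are unknown. Starts, taken to be 0-based, are printed 1-based. Base shares, tracts and skews were computed on the strand with more T. Windows were laid from the first base of each autosome, and a second set began partway into the first window. Flanks and neighbours may cross other peaks. Genes and canonical transcripts came from GENCODE version 44. No repeat annotation was used. No test with a p-value was run: shares are given with 95% Wilson and differences with Newcombe intervals.

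The peaks and measures were chosen with earlier results of these data known. Named were the 5 protein-coding genes with T-skewed peaks at the most sites (ties by number of peaks, then by name), the peaks with the highest T share, deepest stacks, most C or G, nearest to the limit, and the longest run of sites on one strand. The runs of sites after the longest, the shared words and the alternating class were chosen after their values were seen. Alternatives were other limits for T, tracts, neighbours, flanks and overlaps, the central window, and 1 peak per site. The work was done in Python 3.11.15 (numpy 2.4.6 for arrays, pandas 2.3.3 for tables, scipy 1.17.1 for intervals, numba 0.67.0 for scans and matplotlib 3.10.9 for figures), and the functions were tested on simulated sequence with planted intervals.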

Additional observations from a re-analysis of the deposited data

How the results depend on the processing

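The coding share, the shared strand of neighbours and the flank skew kept their direction in every alternative run, and the share with more G than C reversed in one. With a limit of 40% T, there were 10970 peaks, with T on the coding strand in 71.5%, more G than C in 55.7%, the same strand as the neighbour in 83.6%, a flank skew of 0.18 and an overlap with another peak in 44.4%. With a limit of 50%, there were 353 peaks, and these values were 79.1%, 48.7%, 83.6%, 0.17 and 68.6%, with a median width of 297 bp. The share with more G was thus below even, with a 95% interval of 43.5 to 53.9. Leaving out tracts from 12 bp on kept 1499 peaks, 78.1% of them with T on the coding strand. Counting neighbours within 2 kb gave the same strand in 96.6% and within 50 kb in 78.1%. The flank skew was 0.0753 from 1 to 5 kb and 0.20 with 1 peak per site, where the median width was 250 bp. Overlaps of at least 50% of the shorter peak were found for 49.1%, and a peak within 1 kb for 65.7%.

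Leaving out alternating peaks or tandem arrays was added after seeing the data. Without alternating peaks, T was on the coding strand in 78.3%, G exceeded C in 51.2%, the flank skew was 0.22, another peak was overlapped in 36.6% and the median width was 251 bp. Without arrays, another peak was overlapped in 47.6%. The causes of these changes were not tested. Of 49 alternatives, 21 stayed within the 95% interval of the value reported, or within 1.5 times the count. No paired analysis was possible because no peak carries a timepoint or repeat.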
